A study of Mus musculus with 15 samples.

Results

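The p53 feedback and growth arrest genes are 10 mouse genes that sit around the tumour suppressor p53: Trp53 itself, the p53 inhibitors Mdm2 and Mdm4, the phosphatase gene Ppm1d, the cyclin gene Ccng1, the arrest genes Cdkn1a, Btg2 and Gadd45a, the cofactor gene Trp53inp1 and the G2-phase gene Gtse1. They were taken by symbol, with no threshold on their measured values, from the 20207 genes of each table, and all 10 were found. The choice was made with earlier results of these data known. Messenger RNA was sequenced from NIH3T3 cells, a mouse fibroblast line, that stably carried DD-sfGFP, a superfolder green fluorescent protein fused to an FKBP-derived destabilizing domain (DD). Every group carried this transgene, which had been inserted with a PiggyBac transposon, and the cells were a population sorted for high fluorescence rather than a single clone. The domain is folded while the ligand Shield-1 (S1) is bound and unfolds once S1 is taken away. The 5 control samples kept S1, and in the others a purified FKBP protein, added to take up the ligand, removed S1 for 45 min (3 samples), 135 min (3 samples) or 405 min (4 samples) before collection. The comparisons ask how the transcripts of this circuit change, and in what order, after an unfolded protein appears.

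p53 is a transcription factor that is made continuously and destroyed continuously. Its target Mdm2 encodes a ubiquitin ligase that marks p53 for degradation, so that active p53 raises the level of its own inhibitor, and Mdm4 encodes a relative of MDM2 that covers the activation domain of p53. Other targets stop the cell cycle, the best known being Cdkn1a, which encodes the cyclin-dependent kinase inhibitor p21. NIH3T3 cells are known to have lost the Cdkn2a locus, whose ARF product restrains MDM2, and in these libraries Cdkn2a stood between 0 and 0.054 CPM (counts per 1000000, after TMM scaling) in every sample.

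The libraries held 6652539 to 30258404 counts. All 8 fibroblast markers were abundant, with a summed level of 12000 to 18200 CPM, whereas 10 markers of epithelial, blood, endothelial, muscle and fat cells summed to 1.3 to 6.78 CPM, and the sum was highest at 405 min (6.34 to 6.78 CPM). The libraries also differed in their response to GC content, measured as the slope of log2 CPM over 10 percentage points of transcript GC. The 10 libraries of set A had slopes of -1.418 to -0.66 log2 CPM, and the 5 libraries of set B had slopes of -0.362 to 0.058. The sets were divided at the largest gap in the slopes. A gap nearly as wide lay inside set A, between control replicate 3 (-1.418) and control replicate 4 (-1.135). Set B held control replicate 2, the 45-min replicate 3 and the 405-min replicates 1, 2 and 4, and all 135-min samples were in set A. Control replicate 3 also stood apart: 330 genes were listed at 0 there while holding at least 20 counts in each of the other 14 libraries, and no other library had such a gene. The labels do not say that replicates were separate cultures, so p-values measure the spread between these samples, which may be technical.

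The 4 short stretches printed here are the sequences within 5 kb of a member's start that come closest to the p53 response element, a 20-base site built of adjacent 10-base half-sites. Each had 1 mismatch to the consensus, they were read from the mm9 genome 5′ to 3′ on the strand named, and the capitals mark the fixed C and G at the core of each half-site.
Cdkn1a, chr17:29227873-29227892, plus strand, 2835 bases before the gene start: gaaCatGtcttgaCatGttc
Ccng1, chr11:40568964-40568983, minus strand, 186 bases before the gene start: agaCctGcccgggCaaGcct
Ccng1, chr11:40568438-40568457, minus strand, 340 bases after the gene start, in an intron: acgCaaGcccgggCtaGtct
Gtse1, chr15:85690375-85690394, plus strand, 22 bases before the gene start, in an exon of a longer annotated transcript: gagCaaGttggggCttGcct
These 3 genes were the members with any match at up to 2 mismatches, on either strand. Among 9836 windows of the same length around other tested genes, 11.1% held a match at up to 2 mismatches and 2.0% a match at up to 1. A match is a description of the sequence and not a measured binding site, and its absence near the other 7 members says only that these letters were not in that window.

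In unstressed cells the members spanned a wide range of levels. On the RPKM scale, which divides reads by gene length so that genes can be compared within a sample, Ccng1 was the most abundant at 36.2 to 85.8 RPKM over the 5 controls. Mdm2 followed at 18.3 to 27.7 RPKM and Trp53 at 2.88 to 30.0 RPKM, so their ranges over the controls overlapped. Within a sample, Mdm2 was 2.71 to 6.37 times Trp53 in the set A controls and 0.663 times in control replicate 2. In control replicate 3 the RPKM column rests on a depth 1.746 times the median, relative to the count total, so its RPKM values lie low. The middle of the order was held by Gtse1 (4.6 to 13.1 RPKM), Gadd45a (1.75 to 14.6), Cdkn1a (3.25 to 9.81), Mdm4 (1.26 to 5.71) and Ppm1d (1.07 to 4.55), whose ranges also overlapped. The lowest levels belonged to Trp53inp1 at 0.231 to 1.33 RPKM and Btg2 at 0 to 1.05 RPKM. By 135 min the order at the top had turned, with Mdm2 at 157 to 179 RPKM above Ccng1 at 113 to 129 RPKM.

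**Figure D1:**
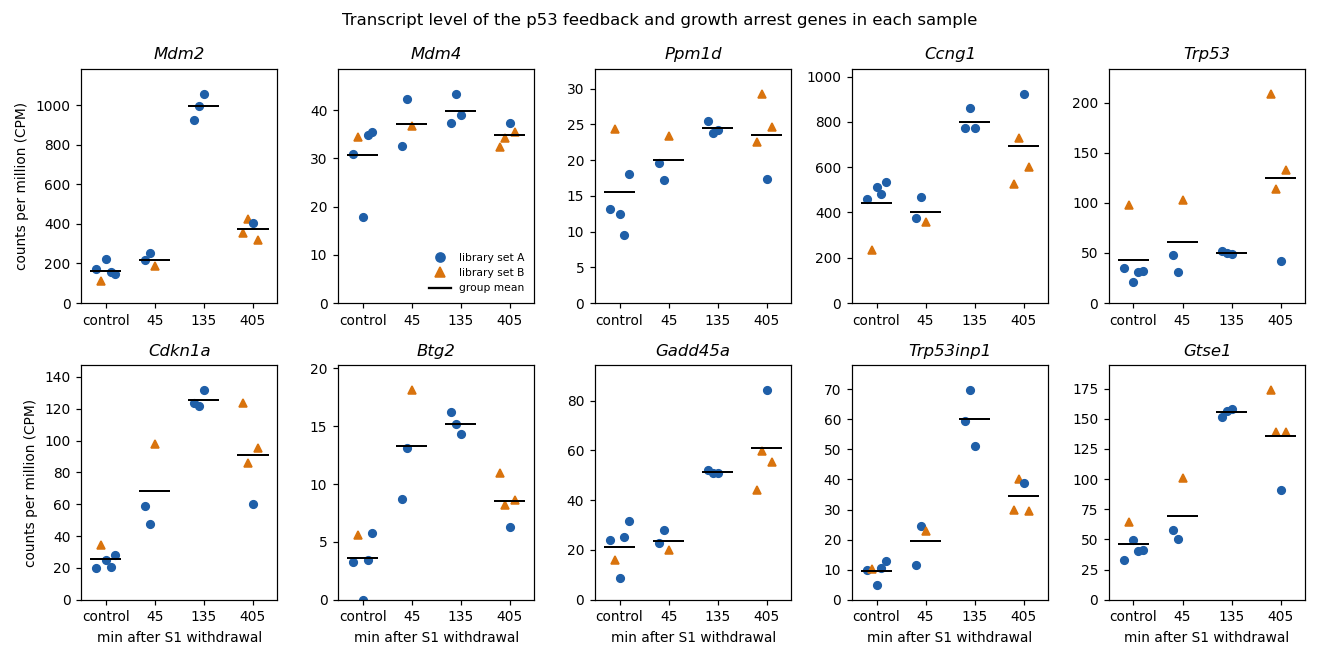
Each panel plots 1 gene: the horizontal axis is the group (control, or minutes after S1 withdrawal), the vertical axis CPM from 0, each point 1 sample (circles set A, triangles set B) and the bar the group mean. Mdm2, Trp53inp1 and Cdkn1a stand highest at 135 min, Cdkn1a and Btg2 are already above every control at 45 min, and Trp53 separates by library set rather than by time.

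Counts were compared with edgeR's quasi-likelihood test over 10276 genes that had at least 1 count in every sample, and p-values were adjusted over all of these genes by the Benjamini-Hochberg method. Of the 10 members 9 were tested. Btg2 was left out because it was listed at 0 in control replicate 3. At 45 min 0 of 9 members passed an adjusted p of 0.05 in edgeR, where 0% of all tested genes passed. Of the 9, 4 had an unadjusted p below 0.05. The share of all tested genes below that unadjusted threshold is not given here. Such counts, here and for the lists below, therefore have no background beside them. DESeq2 called 1 (Cdkn1a), where it called 2 of all 10276 genes higher. At 135 min 4 of 9 were higher than control (Cdkn1a, Gtse1, Mdm2 and Trp53inp1), against 0.564% of all genes. At 405 min 7 of 9 were higher, these 4 with Ccng1, Gadd45a and Trp53, against 9.99% of all genes. None was lower at any time. The median log2 fold change of the 9 was 0.44, 1.27 and 1.51 at 45, 135 and 405 min, beside 0.02, -0.06 and 0 for all tested genes. The 3 comparisons share the same controls. These are measurements of whole populations, so a change in the share of cells that express a gene and a change per cell cannot be told apart.

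Because set and time overlap in part, the same fit was also made with library set as a term. It called 1 of 9 members higher at 45 min (Cdkn1a, where 0.0292% of all genes were called), 8 of 9 at 135 min (all but Mdm4, where 3.06% were called) and 6 of 9 at 405 min (all but Mdm4, Ppm1d and Trp53, where 6.17% were called). Leaving out control replicate 3 and keeping the set term brought Btg2 into the test. This fit called 2, 9 and 7 of the 10 members higher at 45, 135 and 405 min, with Trp53 among the 7. Of all 11342 genes tested in it, 4, 535 and 1174 were called higher at these times.

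**Figure D2:**
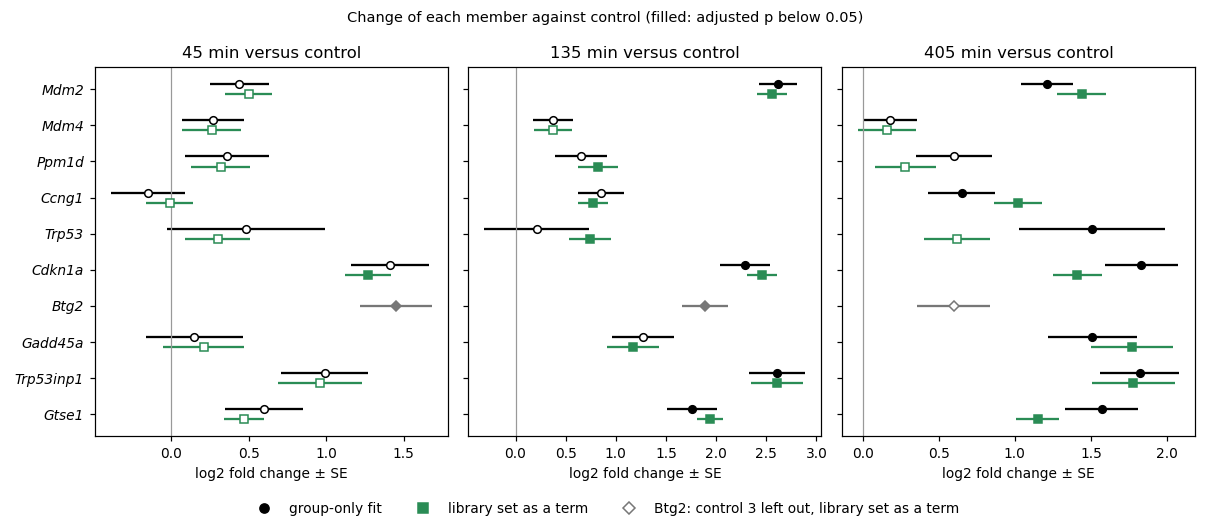
Log2 fold change against control with its standard error (horizontal axis) for each member (vertical axis) in 3 panels for 45, 135 and 405 min. Circles are the group-only fit and squares the fit with library set as a term. Diamonds are Btg2 with control replicate 3 left out and library set as a term. Filled symbols have an edgeR adjusted p below 0.05. Mdm2 reaches 2.62 at 135 min and 1.21 at 405 min in the group-only fit, and the fits differ most for Trp53 at 405 min (1.51 and 0.62).

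Mdm2, the ubiquitin ligase that closes the feedback loop, had, together with Trp53inp1, the largest fold increase of the 10 at 135 min and then came partway down. It lies at chr10:117125961-117147772 (mm9). The controls held 169.8, 110.9, 224.5, 155.7 and 149.2 CPM, and the 45-min samples 216.4, 253.1 and 187.6 CPM. Mdm2 then stood at 927.7, 995.4 and 1058.2 CPM at 135 min and at 354.5, 424.2, 402.2 and 318.7 CPM at 405 min. Control and 45-min samples overlapped, while every 135-min sample lay above all others and every 405-min sample lay between the 135-min samples and the controls. The rise against control was 6.14-fold at 135 min (log2 2.62, SE 0.19, edgeR adjusted p 6.18e-06) and 2.32-fold at 405 min (log2 1.21, SE 0.17, adjusted p 0.000434). The steps between times also passed: from 45 to 135 min the log2 change was 2.18 (SE 0.22, adjusted p 0.000401), where 0.185% of all genes were called higher, and from 135 to 405 min it was -1.41 (SE 0.2, adjusted p 0.0022), where 2.82% of all genes were called lower. The increase at 405 min was found in set A (log2 1.2, adjusted p 0.017, 1 sample against 4) and in set B (log2 1.71, adjusted p 0.00148, 3 against 1). In those within-set fits a lone sample is assumed to vary like the other groups. The fall from 135 min was -1.32 within set A, with an adjusted p of 0.0688.

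Mdm4, which encodes the MDM2 relative that blocks p53 as a transcription factor, did not pass the test at any time. It lies at chr1:134886422-134921925. Its controls held 30.9, 34.4, 17.9, 34.9 and 35.5 CPM. The 45-min samples held 32.5, 42.2 and 36.6 CPM, the 135-min samples 37.3, 43.4 and 38.9 CPM and the 405-min samples 32.3, 34.3, 37.3 and 35.5 CPM. All groups lay close together, and the lowest value of all was control replicate 3. The log2 fold change was 0.27 (SE 0.2), 0.37 (SE 0.2) and 0.18 (SE 0.18) at 45, 135 and 405 min, with edgeR adjusted p-values of 0.698, 0.489 and 0.472. The 135-min samples lay above all 5 controls all the same.

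The ratio of these inhibitor transcripts therefore moved with Mdm2. Per unit length Mdm2 exceeded Mdm4 by 6.33, 3.72, 14.5, 5.14 and 4.85 times in the controls and by 7.67, 6.91 and 5.91 times at 45 min. The ratio was 28.7, 26.4 and 31.4 at 135 min, above every other sample, and 12.6, 14.3, 12.4 and 10.4 at 405 min. The control with 14.5 was replicate 3, and without it all 405-min samples lay above the controls. Mdm2 over Trp53 behaved differently: the ratio was 10.5, 11.6 and 12.5 at 135 min, but in the remaining groups it followed the library set, at 0.663 to 2.17 in set B and 2.65 to 6.37 in set A.

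**Figure D3:**
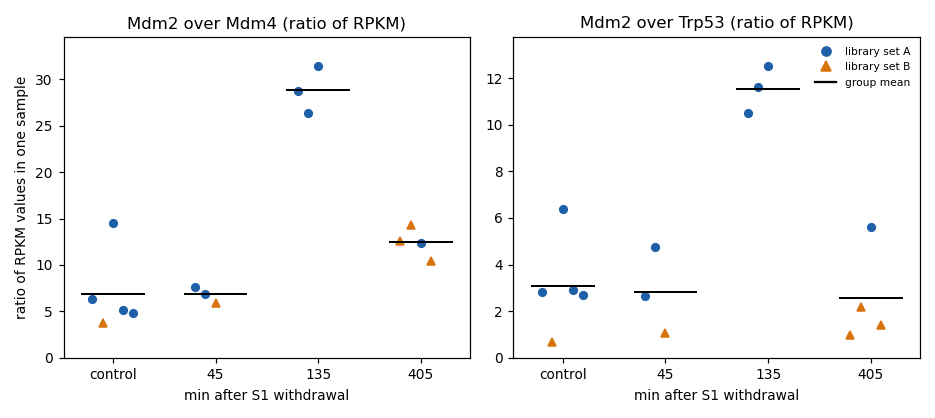
Ratio of RPKM values within each sample (vertical axis, from 0) by group (horizontal axis), Mdm2 over Mdm4 on the left and Mdm2 over Trp53 on the right; circles are set A, triangles set B and bars group means. The 3 samples at 135 min are the highest in both panels, at 26.4 to 31.4 and 10.5 to 12.5.

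Ppm1d encodes the phosphatase WIP1, which removes activating phosphates from p53 and its kinases. It lies at chr11:85124756-85160573. The controls held 13.1, 24.3, 12.5, 9.5 and 18.1 CPM and the 45-min samples 19.6, 17.2 and 23.4 CPM. At 135 min Ppm1d stood at 25.5, 23.8 and 24.2 CPM and at 405 min at 22.6, 29.3, 17.4 and 24.7 CPM. Control replicate 2, from set B, overlapped all later groups, whereas the set A controls lay below every 135-min sample. The log2 change was 0.65 at 135 min (SE 0.26, edgeR adjusted p 0.322) and 0.6 at 405 min (SE 0.25, adjusted p 0.0864). With library set as a term the 135-min change passed at 0.82 (SE 0.2, adjusted p 0.0192) and the 405-min change was 0.28 (adjusted p 0.393).

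Ccng1 encodes cyclin G1, which recruits a phosphatase to MDM2, and it was the most abundant member before stress. It lies at chr11:40562054-40568788 and carries the pair of sequences shown above. The controls held 459.6, 235.1, 511.2, 480.4 and 532.6 CPM and the 45-min samples 374.1, 469.6 and 356.0 CPM. The levels were 771.8, 860.3 and 771.6 CPM at 135 min and 526.1, 727.4, 924.2 and 599.9 CPM at 405 min. All 135-min samples lay above the controls, and the 405-min samples overlapped them narrowly. The log2 change was 0.85 at 135 min (SE 0.23, edgeR adjusted p 0.104) and 0.65 at 405 min (SE 0.22, adjusted p 0.0443). The 405-min call was held in only 2 of the 9 fits that left out 1 sample. In each group that held both sets Ccng1 was lower in set B, and with library set as a term the changes were 0.77 (SE 0.15, adjusted p 0.00561) at 135 min and 1.02 (SE 0.16, adjusted p 0.000507) at 405 min. Within the sets the 405-min change was 0.89 in A (adjusted p 0.0212) and 1.39 in B (adjusted p 0.00698).

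Cdkn1a, the gene of p21, was the only tested member with every 45-min sample above every control. It lies at chr17:29230717-29237667. The controls held 20.1, 34.6, 25.1, 20.7 and 27.9 CPM and the 45-min samples 59.0, 47.7 and 98.0 CPM. Cdkn1a reached 123.7, 121.6 and 131.5 CPM at 135 min and held 123.5, 85.7, 59.9 and 95.6 CPM at 405 min. The same held at 135 and 405 min, and at 45 min 0.467% of the tested genes lay above the controls in this way. At 45 min the 2.66-fold difference (log2 1.41, SE 0.25) had an edgeR adjusted p of 0.585. It passed with library set as a term (log2 1.27, SE 0.15, adjusted p 0.00224) and with DESeq2 (log2 1.39, adjusted p 0.00496), but not within set A alone (log2 1.19, adjusted p 0.205). The increase was 4.88-fold at 135 min (log2 2.29, SE 0.25, adjusted p 0.000218) and 3.55-fold at 405 min (log2 1.83, SE 0.24, adjusted p 0.000247). The 405-min replicate of set A, at 59.9 CPM, was the lowest of its group, and within the sets the 405-min change was 1.35 in A (adjusted p 0.0108) and 1.54 in B (adjusted p 0.0028). From 135 to 405 min the change was -0.46 (SE 0.27, adjusted p 0.262), and with library set as a term -1.04 (SE 0.19, adjusted p 0.00653).

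Btg2, a target that encodes an antiproliferative protein acting on mRNA deadenylation, lay above the controls just as early, at a low level. It lies at chr1:135971442-135975732. The controls held 3.3, 5.6, 0, 3.4 and 5.8 CPM and the 45-min samples 8.7, 13.1 and 18.1 CPM. Btg2 stood at 16.2, 15.2 and 14.3 CPM at 135 min and at 11, 8.2, 6.3 and 8.6 CPM at 405 min. All 10 samples after withdrawal lay above all 5 controls, and every 405-min sample lay below every 135-min sample. The 0 was control replicate 3, where a count of 0 allows up to 0.52 CPM, taken as 3 counts, and Btg2 is among the 330 genes listed at 0 there alone. Without that library the log2 change was 1.53 at 45 min (SE 0.28, edgeR adjusted p 0.644), 1.74 at 135 min (SE 0.28, adjusted p 0.00468) and 0.88 at 405 min (SE 0.26, adjusted p 0.0355). When library set was also a term, the values were 1.45 (adjusted p 0.00894), 1.89 (adjusted p 1.59e-05) and 0.6 (adjusted p 0.0855), and the step from 135 to 405 min was -1.29 (adjusted p 0.00497). With the library kept and the filter of edgeR's filterByExpr, Btg2 changed by 1.81, 2.03 and 1.16 with adjusted p-values of 0.738, 0.132 and 0.127.

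Gadd45a, which encodes a stress sensor that binds PCNA and p21, came later. It lies at chr6:66985090-66987401. The controls held 23.8, 16.1, 8.7, 25.1 and 31.8 CPM and the 45-min samples 22.8, 28.1 and 19.9 CPM. It stood at 52.0, 50.8 and 51.01 CPM at 135 min and at 44.1, 59.6, 84.1 and 55.4 CPM at 405 min. The 45-min samples lay within the control range and all later samples lay above it. The log2 change was 1.27 at 135 min (SE 0.31, edgeR adjusted p 0.0582) and 1.51 at 405 min (SE 0.29, adjusted p 0.00301). At 135 min it passed with library set as a term (log2 1.17, adjusted p 0.0128), and the step from 135 to 405 min was 0.24 (SE 0.33, adjusted p 0.634).

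Trp53inp1 encodes a stress-induced nuclear protein that assists phosphorylation of p53, and at 135 min its fold change was close to that of Mdm2, from a much lower level. It lies at chr4:11083588-11101524. The controls held 9.99, 10.1, 5.0, 10.7 and 12.8 CPM and the 45-min samples 11.4, 24.4 and 22.7 CPM. It stood at 59.3, 69.6 and 51.2 CPM at 135 min and at 29.8, 40.2, 38.7 and 29.6 CPM at 405 min. At 45 min 1 of 3 samples overlapped the controls, and the 405-min samples lay between the controls and the 135-min samples without touching either. The increase was 6.12-fold at 135 min (log2 2.61, SE 0.28, edgeR adjusted p 0.000129) and 3.53-fold at 405 min (log2 1.82, SE 0.26, adjusted p 0.000434). The rise from 45 to 135 min was 1.63 (SE 0.32, adjusted p 0.0378), and this call was lost in all 6 fits that left out 1 sample (adjusted p 0.0695 to 0.22). The later fall was -0.8 (SE 0.29, adjusted p 0.107). Within the sets the 405-min change was 1.97 in A (adjusted p 0.0388) and 1.72 in B (adjusted p 0.00325).

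Gtse1 encodes a microtubule-associated protein of G2 phase that binds p53 and takes it out of the nucleus. It lies at chr15:85690406-85707003, just after the sequence shown above. The controls held 33.2, 64.5, 49.6, 40.5 and 41.6 CPM and the 45-min samples 57.9, 50.2 and 100.6 CPM. The level was 151.7, 156.5 and 158.0 CPM at 135 min and 173.5, 139.2, 90.7 and 139.4 CPM at 405 min. All samples at 135 and 405 min lay above the controls, and within each of the control, 45-min and 405-min groups the set B samples were the highest. The increase was 3.39-fold at 135 min (log2 1.76, SE 0.25, edgeR adjusted p 0.00173) and 2.96-fold at 405 min (log2 1.57, SE 0.24, adjusted p 0.00062). Inside the sets the 405-min change was 1.13 in A (adjusted p 0.018) and 1.21 in B (adjusted p 0.0074). With library set as a term Gtse1 fell by 0.79 on the log2 scale from 135 to 405 min (SE 0.16, adjusted p 0.0143), which in the group-only fit was -0.2 (adjusted p 0.64).

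Trp53 itself is regulated mostly through its protein, and its transcript level followed the library set more than the time. It lies at chr11:69393861-69405375. The controls held 35.1, 98.0, 20.6, 31.3 and 32.2 CPM and the 45-min samples 47.8, 31.1 and 103.0 CPM. Trp53 stood at 51.6, 50.2 and 49.4 CPM at 135 min and at 209.1, 114.2, 41.9 and 132.6 CPM at 405 min. All 5 set B libraries lay between 98.0 and 209 CPM and all 10 set A libraries between 20.6 and 51.6 CPM, whatever the time. Within the control, 45-min and 405-min groups the order of the samples by Trp53 was also their order by GC slope. In the group-only fit the 405-min change of 1.51 (SE 0.48) passed at an edgeR adjusted p of 0.0348. It was 0.62 (SE 0.22, adjusted p 0.0709) with library set as a term, 0.47 within set A (adjusted p 0.451) and 0.62 within set B (adjusted p 0.278), and it held in 2 of the 9 fits that left out 1 sample. With the set term and control replicate 3 left out it was 0.55 (SE 0.18) and passed at an adjusted p of 0.0373. At 135 min, where all samples were of set A, the change of 0.21 (adjusted p 0.924) became 0.74 (SE 0.21, adjusted p 0.0412) with the set term and 0.76 (adjusted p 0.0583) against the set A controls alone. There the 3 samples at 49.4 to 51.6 CPM lay above the 4 set A controls at 20.6 to 35.1 CPM. The GC slopes of these samples (-0.907 to -0.804) were also all above those of the set A controls (-1.418 to -0.983). Slope and time therefore cannot be told apart in this comparison.

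**Figure D4:**
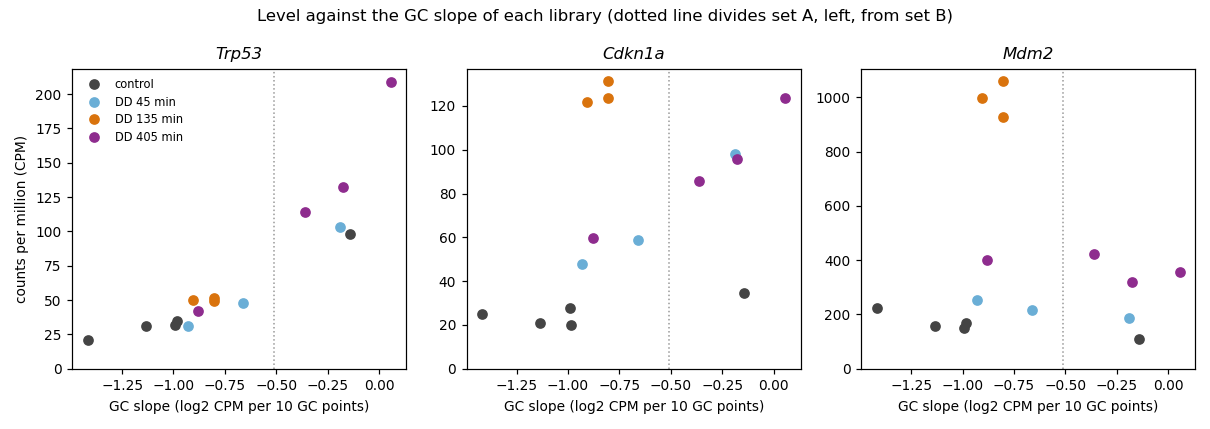
CPM of Trp53, Cdkn1a and Mdm2 (vertical axes, from 0) against the GC slope of each library (horizontal axis, log2 CPM per 10 percentage points of GC), each point 1 of 15 samples coloured by group; set A lies left of the dotted line. Trp53 climbs with the slope within the control, 45-min and 405-min groups, from 20.6 to 209 CPM in all. The 135-min samples of Mdm2 stand at 927.7 to 1058.2 CPM. Their slopes (-0.907 to -0.804) lie between those of the set A controls (-1.418 to -0.983) and that of control replicate 2 (-0.142).

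Neighbouring times were also compared directly. From 45 to 135 min 2 of 9 members rose (Mdm2 and Trp53inp1), and from 135 to 405 min 1 of 9 was lower (Mdm2). With library set as a term 5 of 9 rose in the first step (Ccng1, Cdkn1a, Gtse1, Mdm2 and Trp53inp1, where 0.438% of all genes were called higher) and 3 of 9 were lower in the second (Cdkn1a, Gtse1 and Mdm2, where 2.01% were called lower). In the second step Trp53inp1 had a log2 change of -0.83 (SE 0.32, adjusted p 0.177) with the set term, and every 405-min sample lay below every 135-min sample. Ccng1 and Gadd45a had changes of 0.25 (SE 0.19) and 0.6 (SE 0.32) in that fit and did not pass. No member was called in the second step within set A alone, and differences between members were not tested. Compared by position alone, all samples at 135 min lay above all controls for 8 of 10 members, where 4.79% of the tested genes did so. The exceptions were Trp53 and Ppm1d. At 405 min this held for 6 of 10, against 6.75% of the tested genes.

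Other genes of the pathway were taken from 5 lists. Of 21 tested p53 targets outside the members, 6 were higher at 135 min and 10 at 405 min, none was lower, and the median log2 fold changes were 0.8 and 0.57. The named genes are the 3 called ones with the largest change. Eda2r, a TNF receptor family gene, averaged 25.1 CPM ± 8.85 (SD, n = 5) without stress, 129 CPM ± 16.5 (SD, n = 3) at 135 min and 56.2 CPM ± 15 (SD, n = 4) at 405 min, with log2 changes of 2.36 (edgeR adjusted p 0.000399) and 1.15 (adjusted p 0.00863). The death receptor gene Fas changed by 2.09 at 135 min (adjusted p 0.0201) and by 0.95 at 405 min (adjusted p 0.0853). Sesn2, a stress-induced inhibitor of mTORC1 signalling, changed by 1.7 at 405 min (adjusted p 0.031), and with library set as a term by 1.43 at 45 min (adjusted p 0.0375), 2.39 at 135 min (adjusted p 1.23e-05) and 0.76 at 405 min (adjusted p 0.0502). With that term 13 of the 21 targets were higher at 135 min and 6 at 405 min.

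Of the 19 tested regulators and partners of p53, none was called at 135 min (edgeR, 1 with an unadjusted p below 0.05). At 405 min 2 were higher and 2 lower. Of all 10276 tested genes 1027 were higher and 1382 lower at 405 min, so this list was called about as often as genes at large. Hipk2, a kinase that phosphorylates p53, fell by 0.75 on the log2 scale (SE 0.12, edgeR adjusted p 0.000944), and gave the same value with library set as a term. Chek2, the checkpoint kinase gene, rose by 0.59 (SE 0.18, adjusted p 0.031). The ubiquitin ligase gene Huwe1 changed by 0.72 (adjusted p 0.0166) and the kinase gene Atr, named after its value was seen, by -0.44 (adjusted p 0.0461). With library set as a term these last values had adjusted p-values of 0.054 and 0.139, and Huwe1 was called at 135 min (log2 0.65, adjusted p 0.0179).

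Of 15 tested G1 cyclins, kinases, inhibitors and retinoblastoma family genes, 0 were called at 135 min (edgeR, 3 with an unadjusted p below 0.05). At 405 min Rbl2 (log2 1.15, adjusted p 0.0316) and Rb1 (log2 0.81, adjusted p 0.0325) were higher and Cdkn2c (log2 -0.97, adjusted p 0.0497) was lower. With library set as a term Rb1 stayed called at 405 min (log2 1.13, adjusted p 0.00157), while Rbl2 and Cdkn2c had adjusted p-values of 0.0928 and 0.295. That fit called further genes, named here after their values were seen. Of all 10276 tested genes it called 501 lower at 135 min, and 634 higher and 706 lower at 405 min. The D-type cyclin genes Ccnd1 (log2 -0.74, adjusted p 0.00197) and Ccnd2 (log2 -0.81, adjusted p 0.00693) and their partner kinase gene Cdk6 (log2 -1.03, adjusted p 0.0219) were lower at 405 min, and the inhibitor genes Cdkn1b (log2 -0.8, adjusted p 0.014) and Cdkn2c (log2 -1.03, adjusted p 0.0143) were lower at 135 min. Of 26 tested G2 and mitosis genes none was higher at any time, although Gtse1 is a gene of that phase, and their median log2 change was -0.22 at 135 min and -0.28 at 405 min. In the group-only fit the single call was Birc5, which encodes survivin, at -0.35 (adjusted p 0.0434) at 405 min and -0.29 (adjusted p 0.115) with the set term. The set term gave calls of its own at 135 min, where Ube2c (log2 -0.97, adjusted p 0.0339) and the cyclin B1 gene Ccnb1 (log2 -0.71, adjusted p 0.0484), also named after their values were seen, were lower.

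None of 10 tested paralogs of the members was called against control in the group-only fit (edgeR), where 2, 4 and 1 had an unadjusted p below 0.05 at 45, 135 and 405 min. Ccng2, the relative of Ccng1, had a log2 change of -1.01 at 135 min (SE 0.33, edgeR adjusted p 0.184). Btg1 had one of -0.48 (SE 0.15, adjusted p 0.158) and Gadd45b one of -0.59 (SE 0.24, adjusted p 0.321). These named genes were opposite in sign to their members, as were Cdkn1b (-0.75) and Gadd45g (-0.53). The rest were above 0: Ppm1a (0.2), Ppm1b (0.19), Tob1 (0.33), Tob2 (0.2) and Trp53inp2 (0.03). With library set as a term 3 of the 10 were lower at 135 min, where 501 of all 10276 tested genes were lower. They were Ccng2 (edgeR adjusted p 0.041), Btg1 (adjusted p 0.0472) and Cdkn1b, the relative of Cdkn1a given above. No gene in the tables overlapped a member in position.

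**Figure D5:**
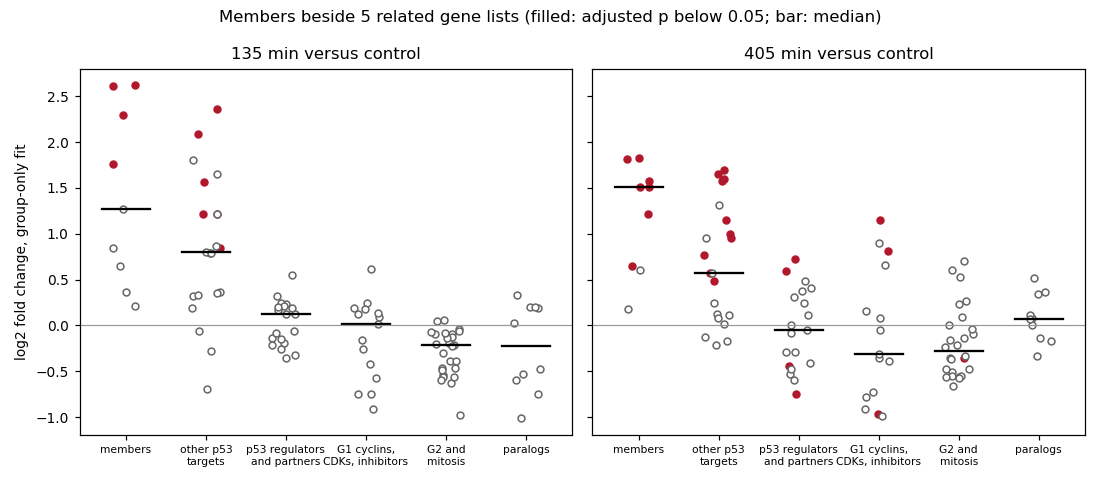
Log2 fold change against control (vertical axis) of the 9 tested members and of 5 gene lists (horizontal axis) at 135 min, left, and 405 min, right; each point is 1 gene, filled where the adjusted p is below 0.05, and bars are medians. The members' medians of 1.27 and 1.51 lie above those of the other p53 targets (0.8 and 0.57). The other 4 lists have medians between -0.31 and 0.12. Members and lists were chosen with earlier results of these data known, which can itself set the medians apart.

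The genes whose log2 CPM was most like that of each tested member are given by Pearson's r over the 15 samples, which share library, depth and GC slope with the member. The p53 targets Tnfrsf10b (r = 0.951) and Apaf1 (0.95) were among the 3 genes nearest to Mdm2. Over the 10 libraries of set A, Gtse1 (0.983) and Gclc (0.975) were among them. Trp53inp1 was closest to Eda2r over all samples (0.947) and in set A (0.989), with the heat shock gene Hsph1 among its 3 nearest each time (0.929 and 0.956). Cdkn1a and Gtse1 were near each other (0.951), with Rab40c (0.939) and Osgin1 (0.935) beside Cdkn1a, and in set A the nearest genes to Cdkn1a were Nans (0.969), Ptpn14 (0.958) and Hmox1 (0.958).

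Gtse1 was nearest to Gclc, a glutathione synthesis gene, over all samples (0.961) and in set A (0.984), and Zfand2a (0.952) came next. For Gadd45a these were Layn (0.972), Rit1 (0.962) and the proteasome gene Psmc2 (0.956), which was at 0.978 in set A. Ccng1 was nearest to Gm14410 (0.956), Plod2 (0.94) and Zfp418 (0.933), Mdm4 to Atp5c1 (0.951), Dcbld2 (0.932) and Arl13b (0.926), and Ppm1d to Gm9907 (0.94), Fbxw7 (0.92) and 4632411B12Rik (0.902). The nearest genes to Trp53 were Rbm14 (0.989), Pkm2 (0.984) and Plxnb2 (0.982), and none of these was among its 3 nearest in set A, which were Abcf2 (0.969), Dync1li1 (0.968) and Rbm38 (0.967).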

How the data were processed

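Poly(A) mRNA-seq of 15 NIH3T3 samples was used, grouped by sample title. The authors aligned reads to mm9 and quantified RefSeq genes on the DNAnexus platform, and the aligner version is not given in the sources used here. The count column that the authors deposited holds expected counts (8.7% to 15.6% of genes per sample held a fraction, and values carry at most 4 significant digits), and they were rounded to whole numbers. The RPKM values deposited by the authors were used only to compare genes within a sample. The deposited Z score and the deposited ratio of RPKM to its root mean square were not used. The study's methods describe more than 1 library protocol and the labels name 1, and which sample had which is not given in the sources used here.

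Genes with at least 1 count in all samples were kept (10276), TMM factors computed, and a model with a term for group fitted to all samples (edgeR 4.0.16, R 4.3.3, glmQLFTest, Benjamini-Hochberg, threshold 0.05). SE is the log2 fold change over the square root of F. Library sets were divided at the largest gap in the GC slope, using GENCODE vM1 transcripts for 95.0% of tested genes. Alternatives included DESeq2 1.42.0, other filters and scalings, a library set term, fits within sets, a replicate block and leaving out each sample. The script was tested on simulated data. Response elements were searched in the NCBIM37 genome, the same assembly as mm9.

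All members are named in every comparison, and from each list the 3 called genes with the largest change against control, with up to 4 further genes beside a member. The members and lists were chosen with earlier results of these data known. Of the genes nearest to Mdm2 by correlation, 1 is not reported here.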

Additional observations from a re-analysis of the deposited data

Results flagged for a closer look

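In 3 of the 20 member and group combinations tested (groups of 4 or 5 samples), 1 sample lay far from the others by Dixon's criterion, where chance alone gives about 1 in 20. Trp53 in control replicate 2 stood at 98.0 CPM, with a gap to the next sample of 0.814 of the group's range. Ccng1 in the same library stood at 235.1 CPM, with a gap of 0.755. Control replicate 2 is the only control of library set B. In the group-only fit both genes were called at 405 min with and without it. Without it, however, only set A controls face a 405-min group that is mostly set B. Each of these calls held in only 2 of the 9 fits that left out 1 sample. With library set as a term the 405-min change was 0.62 for Trp53 (edgeR adjusted p 0.0709) and 1.02 for Ccng1 (adjusted p 0.000507). Mdm4 in control replicate 3 stood at 17.9 CPM, with a gap of 0.74, in the shallowest library. The change against control differed between times for Mdm2, by a log2 change of 2.18 between 45 and 135 min and of -1.41 between 135 and 405 min, and for Trp53inp1, by 1.63 between 45 and 135 min (edgeR, both tested within 1 fit).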

How the results depend on the processing

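The number of members called against control at 135 min was 8 with library set as a term. It was 9 both with filterByExpr and the set term and with control replicate 3 left out and the set term. These last settings were chosen after seeing the data. Of all tested genes, the 3 settings called 314 of 10276, 273 of 12261 and 535 of 11342 higher. At 45 min the number of members called was 1 with DESeq2, 1 with the set term, 1 with filterByExpr and the set term, and 2 with control replicate 3 left out and the set term. In these 45-min fits 2 to 4 of all tested genes were called higher. At 405 min no setting moved the count by over 1.5 times, and leaving out 1 sample gave 5 to 8. The fit with 8, without control replicate 2, called 2517 of all 10287 tested genes higher. The leave-out fits with 5 called 418 to 567 of all tested genes higher. From 45 to 135 min it was 1 with library totals only, 1 with the replicate block, 4 with DESeq2, with only the groups compared, with only library set A and with filterByExpr and the set term, 5 with the set term, and 6 with control replicate 3 left out and the set term. Every fit without 1 sample gave 1, so the range is 1 to 1. Of all genes tested in this step, DESeq2 called 56 of 10276 higher, and the fit with only the groups compared 32 of 12322. With control replicate 3 left out and the set term 142 of 11342 were higher. From 135 to 405 min it was 0 within set A, 0 with the replicate block, 2 with DESeq2, 3 with the set term with or without filterByExpr, 4 with only the groups compared, and 6 with control replicate 3 left out and the set term. These counts take both directions together. From 135 to 405 min Trp53 was higher among the 4 (log2 1.27, edgeR adjusted p 0.0489), and Gadd45a among the 6 (log2 0.66, adjusted p 0.0175). Of all tested genes, 1880 were called higher and 1324 lower of 12188 with only the groups compared. With control replicate 3 left out and the set term these numbers were 610 and 617 of 11342, and with DESeq2 799 and 672 of 10276. The cause was not tested.

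Signs turned in 21 of the fitted log2 changes, none of them past the threshold. For Trp53 the step from 45 to 135 min was 0.44 with the set term, 0.35 in set A, 0.44 with filterByExpr and the set term, 0.42 with control replicate 3 also left out, and the step from 135 to 405 min -0.11, -0.28, -0.12 and -0.08. For Ccng1 the last step was 0.25, 0.19, 0.24 and 0.24 under those settings, and the 45-min change was 0.6 in set B and 0.01 with control replicate 3 left out and the set term. Ppm1d changed by -0.06 at 45 min in set B, and in the last step by 0.07 with library totals only and by 0.06 without the 405-min replicate 3. Mdm4 changed by -0.03 at 405 min in set B, and Gadd45a by -0.05 at 45 min without control replicate 3. Over the fits that left out 1 sample, Trp53 ranged from -0.14 to 1.02 at 45 min and from -0.58 to 0.35 in the step to 135 min, Ppm1d from -0.18 to 0.06 in the last step and Gadd45a from -0.05 to 0.34 at 45 min.

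Samples with the same replicate number were not more alike than others. Deviations from the group means correlated at a mean of -0.11 (-0.706 to 0.437) in 19 same-numbered pairs and 0.028 in 64 others. Library set was not removed first and does not fall on the same numbers in each group, so this check cannot exclude a pairing. With the replicate block 3 members were called higher at 135 min and 5 at 405 min. Of all 10276 tested genes that fit called 11 and 333 higher. Btg2 was left out of the test by a 0 in the shallowest library.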
